A study of Mus musculus with 8 samples.

Results

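Oligodendrocytes of mice without microglia were examined for 10 genes of lipid carriage and cholesterol transport: *Apoe*, *Apod*, *Clu*, *Abca1*, *Abca2*, *Abcg1*, *Lrp1*, *Npc1*, *Npc2* and *Scarb2*. They were chosen by name, with earlier results of these data known, and all 10 were found among the 18833 genes of the deposited matrix. The deposited single-cell RNA sequencing covers 4 female mice, with 1 library each from hippocampus and cortex, and holds 8 libraries and 12581 mature oligodendrocytes. The study's methods state more cells and more genes for its own oligodendrocyte analysis. *Fire*+/+ mice (labelled WT) were mouse 1 and mouse 4. *Fire*Δ/Δ mice (labelled KO) were mouse 3 and mouse 6, and carry a germline deletion of the Fms intronic regulatory element of *Csf1r*, which leaves them without microglia while other macrophages of the brain remain. The labels give an age of 1 month and 18 days for mice 1 and 3, and of 1 month and 16 days for the other pair. All animals were otherwise handled alike: tissue was dissociated with actinomycin D, the sample called cortex was what remained of the left hemisphere after the hippocampus was removed, and live single cells were sorted by scatter. The study sorted the cells into 4 states, Oligo1 to Oligo4.

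Cholesterol is a main lipid of myelin and cannot cross the blood–brain barrier, so the brain makes, passes on and recycles its own. Within the brain, lipids travel between cells on particles that carry apolipoproteins. ABC transporters of the plasma membrane load such particles, endocytic receptors take them up, and lysosomes free the cholesterol, which NPC2 and NPC1 pass out to other membranes. Astrocytes and microglia are the best known sources of apolipoprotein E, whereas apolipoprotein D is a product of myelinating glia.

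The levels of *Apoe* and *Apod* varied most between the states among the 10 genes, and their promoters are shown for that reason. Each sequence is the 250 bases before the transcription start in RefSeq, assembly GRCm38.p6, read 5′ to 3′ on the minus strand. The *Apoe* window, before the most upstream of its listed starts, is chr7:19699189-19699438, and the *Apod* window is chr16:31314809-31315058. Capitals mark ACAAAG, a core motif of SOX factors, or its complement CTTTGT.
Apoe: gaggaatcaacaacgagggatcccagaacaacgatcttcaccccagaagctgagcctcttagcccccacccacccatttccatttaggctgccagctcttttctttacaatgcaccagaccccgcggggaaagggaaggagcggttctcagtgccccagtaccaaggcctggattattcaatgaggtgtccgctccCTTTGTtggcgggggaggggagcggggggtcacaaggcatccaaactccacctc
Apod: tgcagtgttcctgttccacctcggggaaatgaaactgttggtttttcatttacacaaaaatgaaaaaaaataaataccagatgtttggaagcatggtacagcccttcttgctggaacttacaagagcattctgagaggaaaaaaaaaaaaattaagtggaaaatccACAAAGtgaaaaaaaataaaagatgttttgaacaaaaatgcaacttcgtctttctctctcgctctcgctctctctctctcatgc
The match begins 54 bases before the start in *Apoe* and 84 bases before it in *Apod*. On either strand, 16.5% of 32851 mouse promoter windows of this length hold those letters, so the match describes the letters only. None of the other motifs searched on both strands was found in either window: AGGTCA (a site that liver X receptors can bind), the DR4 element in which that site is repeated, GGGCGG (known as the GC box), CCAAT (the site of nuclear factor Y), TATAAA (the TATA box) and TCACGTGA (the core of lysosomal gene promoters). Of all windows, 14.0%, 0.0152%, 32.7%, 33.8%, 12.4% and 0.785% hold them in this order. A window before another listed *Apoe* start, not shown, does hold TATAAA, 96 bases before that start, and its complement TTTATA, 100 bases before it. Of the 10 genes, 7 had a promoter in the table.

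Each library contributed 904 to 2784 cells. The median cell of a library had 9377 to 13725.5 UMIs, each marking 1 captured RNA molecule. *Mog*, *Mag* and *Mbp*, markers of myelinating oligodendrocytes, had a UMI in 100% of cells of every library. *Csf1r* had a UMI in 5.31% to 10.2% of cells in *Fire*+/+ libraries and in at most 0.155% in *Fire*Δ/Δ libraries. The study's methods describe batch 6, the cortex libraries of mice 4 and 6, as of poorer quality, and their median mitochondrial share of 6.23% to 6.29% was the highest. Cells from different libraries shared a barcode in 42 of 12581 cases. Each batch held 1 tissue of 1 mouse of each genotype, so genotypes could be compared within batches. The 11 microglial markers summed to 0.667 to 1.57 UMIs per 10000 in *Fire*+/+ libraries and 0.166 to 0.219 in *Fire*Δ/Δ libraries. Among them, *Tmem119* was at 0 UMIs in *Fire*Δ/Δ cells. The 6 astrocyte markers, of which *Slc1a2* was the most abundant, summed to 2.22 to 2.72 and 1.78 to 2.63 UMIs per 10000 in the same order, with none at 0. The 5 perivascular macrophage markers stayed at or under 0.011 UMIs per 10000 in every library.

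The values below are means over cells of the deposited log2 value, that is log2 of a cell's UMI count divided by its size factor, plus 1. *Apod*, *Abca2*, *Npc2* and *Apoe* had a UMI in nearly all cells. A UMI need not come from the cell itself: 71.3% to 90.7% of cells of a library also had a UMI of an astrocyte marker. A UMI was present in 99.9% to 100% of cells of a library for *Apod*, in 98.7% to 99.9% for *Abca2*, in 94.9% to 98.8% for *Npc2* and in 92.5% to 98.3% for *Apoe*. *Scarb2* was seen in 81.0% to 92.4% of cells, *Npc1* in 79.5% to 92.2% and *Abcg1* in 61.0% to 82.1%. *Clu* (31.5% to 47.2%) and *Abca1* (16.2% to 25.1%) were sparse. *Lrp1* was sparsest, at 3.32% of cells in the *Fire*Δ/Δ cortex of mouse 6 (95% Clopper-Pearson interval 2.25% to 4.70%) to 5.39% in the *Fire*+/+ hippocampus of mouse 1 (4.52% to 6.38%), from 637 UMIs in all. These intervals cover counting error only. With every cell thinned to 5000 UMIs, the ranges were 79.6% to 94.8% for *Apoe* and 1.35% to 2.83% for *Lrp1*.

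*Apoe*, the main lipid carrier of the brain (chromosome 7, 19696109 to 19699188, minus strand), was highest in Oligo3 in all 8 libraries. In hippocampus and cortex, its Oligo3 level was 4.42 and 3.99 for mouse 1, 4.33 and 3.85 for mouse 3, 2.96 and 3.29 for mouse 4, and 3.65 and 2.92 for mouse 6. Oligo2 cells lay between 1.33 and 2.29 and Oligo4 cells between 1.68 and 2.48, so neither state overlapped with Oligo3. Within a library Oligo3 exceeded Oligo2 by 1.52 to 2.43 and Oligo4 by 1.16 to 2.46 on the log2 scale. Oligo4 was above Oligo2 in 7 of 8 libraries, and the ranges of these states over libraries overlapped. Cells were assigned to states from the expression of many genes, which may include these, so all differences between states are given as descriptions, with no test.

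The median Oligo3 cell held 10 to 26 *Apoe* UMIs, depending on the library, whereas the median Oligo2 cell held 2 to 5 and the median Oligo4 cell 3 to 7. In Oligo3, 53.0% to 84.5% of cells held 10 or more *Apoe* UMIs, against 9.95% to 28.3% in Oligo2 and 13.4% to 42.3% in Oligo4. Single cells varied widely: in the *Fire*+/+ hippocampus of mouse 1, the middle 50% of Oligo3 cells ran from 14 to 43 UMIs and the highest cell held 220. Astrocytes are rich in *Apoe*, and the astrocyte marker sum was lower in Oligo4 than in Oligo3 in every library. Per astrocyte marker UMI, Oligo3 cells held 5.47 to 14.1 *Apoe* UMIs, Oligo2 cells 1.13 to 3.99 and Oligo4 cells 2.65 to 6.75. The ranges of Oligo4 and Oligo3 over libraries overlapped, but within every library Oligo3 was above Oligo4. The 2 states were closest in the *Fire*Δ/Δ cortex of mouse 6, at 5.47 in Oligo3 and 4.72 in Oligo4. The marker sums of Oligo3 and Oligo2 overlapped over libraries, at 2.31 to 3.08 UMIs per 10000 in Oligo3 and 1.94 to 2.83 in Oligo2. Within a library the sum was higher in Oligo3, with 2 exceptions. These were the *Fire*+/+ hippocampus of mouse 4 (2.34 against 2.39) and the *Fire*Δ/Δ cortex of mouse 6 (2.31 against 2.67). The part of astrocyte RNA in the *Apoe* values was not tested.

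*Apod* encodes a lipocalin that binds small lipids, and lies on chromosome 16, 31296192 to 31314808, minus strand. It followed another order, Oligo2 above Oligo3 above Oligo4, in 8 of 8 libraries. Oligo2 levels were 4.93 to 5.58, Oligo3 levels 3.82 to 4.59 and Oligo4 levels 3.16 to 3.67, with no overlap between these ranges. Oligo2 exceeded Oligo3 by 0.96 to 1.30 within a library, and Oligo3 exceeded Oligo4 by 0.65 to 1.10. In UMIs per 10000, *Apod* made up 40.6 to 62.7 in Oligo2 and 11 to 15.7 in Oligo4. *Apoe* and *Apod* were thus both uneven across states but peaked in different ones, with a Pearson r of −0.11 between their levels over 28 groups of 20 or more cells of 1 library and state.

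*Clu* encodes clusterin, a secreted chaperone that also travels on lipoproteins (chromosome 14, 65968483 to 65981547, plus strand). Its levels were 0.34 to 0.50 in Oligo3, 0.26 to 0.40 in Oligo2 and 0.25 to 0.45 in Oligo4. Oligo3 was the highest of the 3 states in 8 of 8 libraries, by 0.030 to 0.13 over Oligo2. Astrocytes make much *Clu*, and *Gja1* (r = 0.72), among the genes whose levels were most like it over the 28 groups, is known from astrocytes. Per astrocyte marker UMI the order was another: Oligo4 cells held 0.23 to 0.39 *Clu* UMIs, Oligo3 cells 0.19 to 0.26 and Oligo2 cells 0.13 to 0.21. In the *Fire*+/+ hippocampus of mouse 1, Oligo3 (0.237) stayed above Oligo4 (0.230) on this scale. The part of astrocyte RNA in the *Clu* values was not tested.

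Of the sterol exporters, *Abcg1* differed most between states. ABCG1 passes cholesterol to lipoprotein particles that already hold lipid, and its gene lies on chromosome 17, 31057675 to 31117988, plus strand. *Abcg1* levels ran from 0.89 to 1.13 in Oligo2, 0.71 to 0.93 in Oligo3 and 0.51 to 0.72 in Oligo4, in this order in 8 of 8 libraries. Oligo2 exceeded Oligo4 by 0.22 to 0.48 within a library, the same order of states as for *Apod*. The correlation of *Abcg1* and *Apod* over the 28 groups was 0.77. *Abca1*, whose product loads lipid-free apolipoprotein E (chromosome 4, 53030787 to 53159895, minus strand), was highest in Oligo3 in 8 of 8 libraries, by 0.017 to 0.059 over Oligo2, at levels of 0.097 to 0.23 in all states. *Abca2* encodes a transporter of lysosomes and late endosomes that is abundant in oligodendrocytes (chromosome 2, 25428703 to 25448540, plus strand). It was level across the states, at 2.21 to 2.71 in Oligo2, 2.25 to 2.67 in Oligo3 and 2.24 to 2.72 in Oligo4, and the order of states differed between libraries. *Lrp1*, the gene of a large endocytic receptor for apolipoprotein E particles (chromosome 10, 127538161 to 127621148, minus strand), stayed at or under 0.054 in every group, too low to order the states.

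Of the 3 lysosomal genes, *Npc2* and *Npc1* were highest in Oligo2 and *Scarb2* in Oligo4 in most libraries. *Npc2*, whose soluble product takes cholesterol from the lumen (chromosome 12, 84754562 to 84773152, minus strand), was highest in Oligo2 in 8 of 8 libraries, at 1.77 to 2.0 against 1.64 to 1.90 in Oligo3 and 1.57 to 1.83 in Oligo4. *Npc1*, the gene of the membrane protein that receives it (chromosome 18, 12189692 to 12236400, minus strand), was highest in Oligo2 in 7 of 8 libraries, with levels of 1.19 to 1.43 against 1.09 to 1.36 in Oligo3. For both genes the ranges of these states overlapped. *Scarb2* encodes LIMP-2, a lysosomal membrane protein that carries glucocerebrosidase to the lysosome and can also conduct cholesterol (chromosome 5, 92441314 to 92506833, minus strand). *Scarb2* alone had Oligo4 as the highest of the 3 states, in 7 of 8 libraries, at 1.15 to 1.45 against 1.19 to 1.33 in Oligo2 and 1.12 to 1.22 in Oligo3. The exception was the *Fire*+/+ hippocampus of mouse 4.

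**Figure D1:**
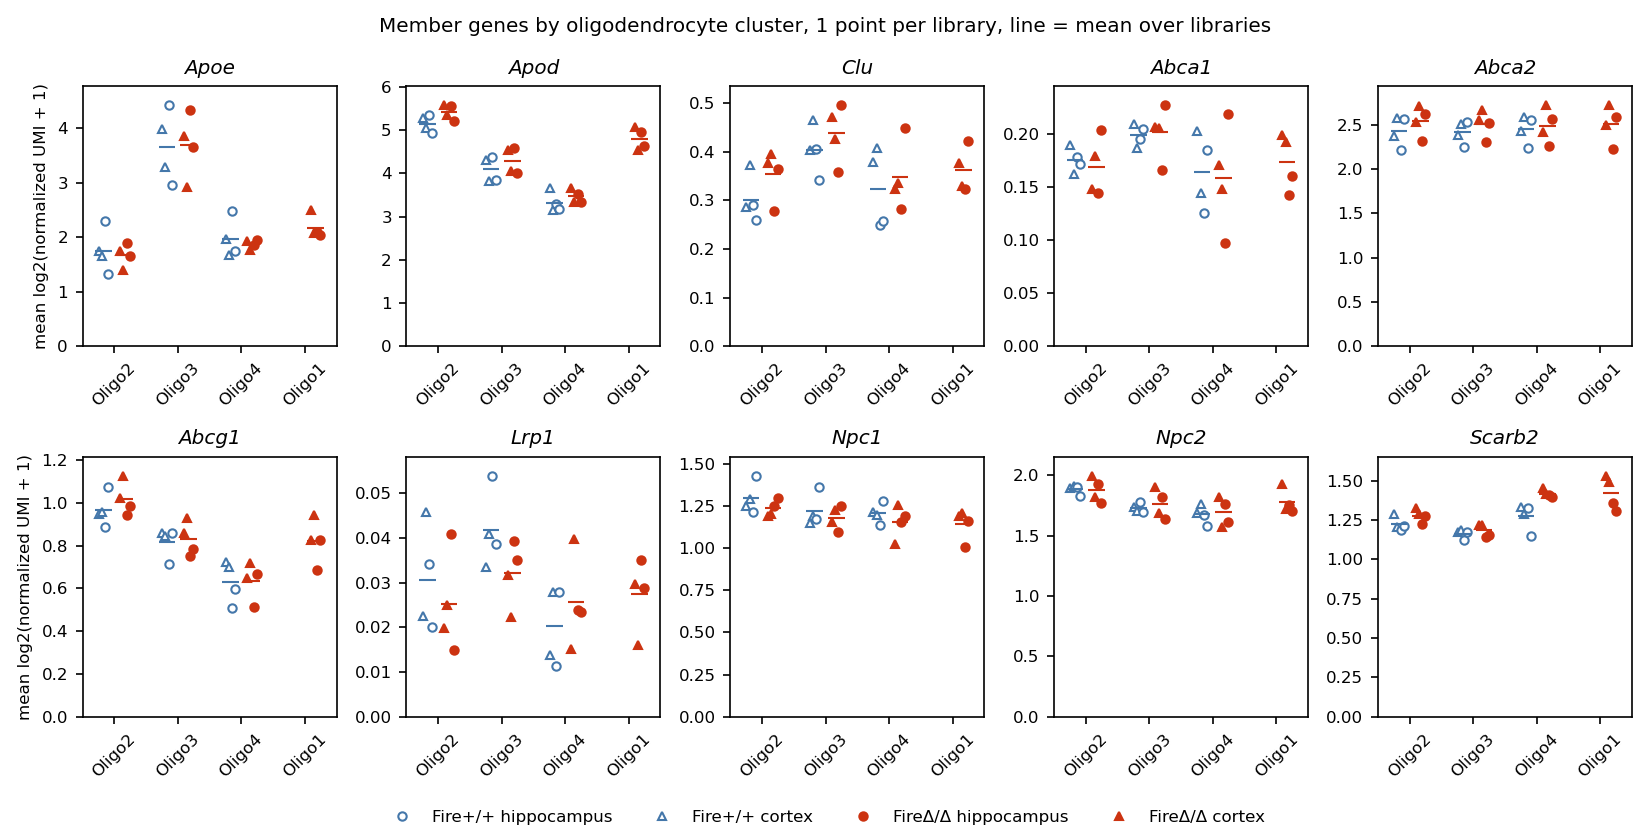
Mean log2 value of each of the 10 genes (y axis, starting at 0) in the cells of each state (x axis), with 1 point per library of 20 or more such cells, open for *Fire*+/+ and filled for *Fire*Δ/Δ, and a line at the mean over libraries. *Apoe* stands out in Oligo3, *Apod* and *Abcg1* step down from Oligo2 to Oligo4, and *Scarb2* is highest in Oligo4 and Oligo1.

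Oligo1, the state found almost only in *Fire*Δ/Δ mice (98 to 859 cells in each *Fire*Δ/Δ library, against 6 cells in all *Fire*+/+ libraries), was compared with the other cells of the same library. *Apoe* was lower in Oligo1 in 4 of 4 libraries. Its Oligo1 levels were 2.10 and 2.05 in the hippocampus of mice 3 and 6 and 2.50 and 2.07 in the cortex. Those of the other cells were 3.43, 2.90, 3.13 and 2.39 in the same order. Differences were −1.33, −0.85, −0.63 and −0.32, with a mean of −0.78 ± 0.20 (SE, n = 2 mice). The direction depended on the state compared with. Against Oligo3 alone Oligo1 was lower by 0.85 to 2.23 on the log2 scale, whereas against Oligo2 alone it was higher by 0.20 to 0.76 and against Oligo4 alone by 0.091 to 0.57. Oligo1 held 5.98 to 9.64 *Apoe* UMIs per 10000, between the 3.03 to 6.50 of *Fire*Δ/Δ Oligo2 and the 12.7 to 33.0 of *Fire*Δ/Δ Oligo3. The astrocyte marker sum was 1.22 to 2.05 UMIs per 10000 in Oligo1 and 2.03 to 2.80 in the other *Fire*Δ/Δ cells. Per astrocyte marker UMI, Oligo1 held 2.92 to 7.65 *Apoe* UMIs, in each library above Oligo2 and below Oligo3. On this scale Oligo1 was below Oligo4 in the hippocampus of mouse 3 (5.88 against 6.75) and the cortex of mouse 6 (4.07 against 4.72). It was above Oligo4 in the other libraries. The part of astrocyte RNA in the difference was not tested.

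*Apod* was higher in Oligo1 than in the other cells in 4 of 4 libraries, at 4.96 and 4.63 in the hippocampus of mice 3 and 6 and 5.07 and 4.54 in the cortex, against 4.66, 4.16, 4.80 and 4.36. The mean difference was 0.31 ± 0.024 (SE, n = 2 mice). Here too it depended on the state: Oligo1 was above Oligo3 by 0.37 to 0.63 and above Oligo4 by 1.19 to 1.44 but below Oligo2 by 0.51 to 0.81 on the log2 scale. Oligo1 therefore lay between Oligo2 and Oligo3 for both apolipoproteins, in 4 of 4 libraries.

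*Scarb2* was higher in Oligo1 in 4 of 4 libraries, at 1.36 and 1.31 in the hippocampus of mice 3 and 6 and 1.53 and 1.49 in the cortex, against 1.20, 1.23, 1.27 and 1.25 in the other cells. The mean difference was 0.19 ± 0.028 (SE, n = 2 mice). It held against Oligo2 alone (0.031 to 0.21) and Oligo3 alone (0.15 to 0.31), whereas against Oligo4 it lay between −0.092 and 0.078. *Clu* was lower by 0.0069 to 0.080 in 4 of 4 libraries. Per astrocyte marker UMI, however, Oligo1 held 0.29 to 0.39 *Clu* UMIs. *Fire*Δ/Δ cells of Oligo3 held 0.22 to 0.26, those of Oligo2 0.16 to 0.21 and those of Oligo4 0.27 to 0.39. *Abcg1* was below Oligo2 by 0.16 to 0.26 and above Oligo4 by 0.16 to 0.23, with differences from Oligo3 of both signs. For *Abca1*, *Abca2*, *Npc1*, *Npc2* and *Lrp1* the 4 libraries differed in sign.

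As a measure of size, a gene was counted where its difference between Oligo1 and the other *Fire*Δ/Δ cells had 1 sign in all 4 libraries and a mean of 0.25 or more on the log2 scale in either direction. Of 9321 genes seen in 5% of cells or more, 83 (0.89%) were counted as higher and 67 (0.719%) as lower. Of the 9 genes of the group that were tested, all but *Lrp1*, *Apod* was counted as higher and *Apoe* as lower. *Apoe* had the 8th largest absolute difference of all tested genes and *Apod* the 98th. By sign alone, 2 of the 9 were higher in all 4 libraries and 2 lower, against 19.6% and 15.8% of all genes. The median difference of the 9 was −0.015, that of all tested genes 0.0025. As the genes were chosen with earlier results of these data known, these counts and ranks are descriptions and no test.

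**Figure D2:**
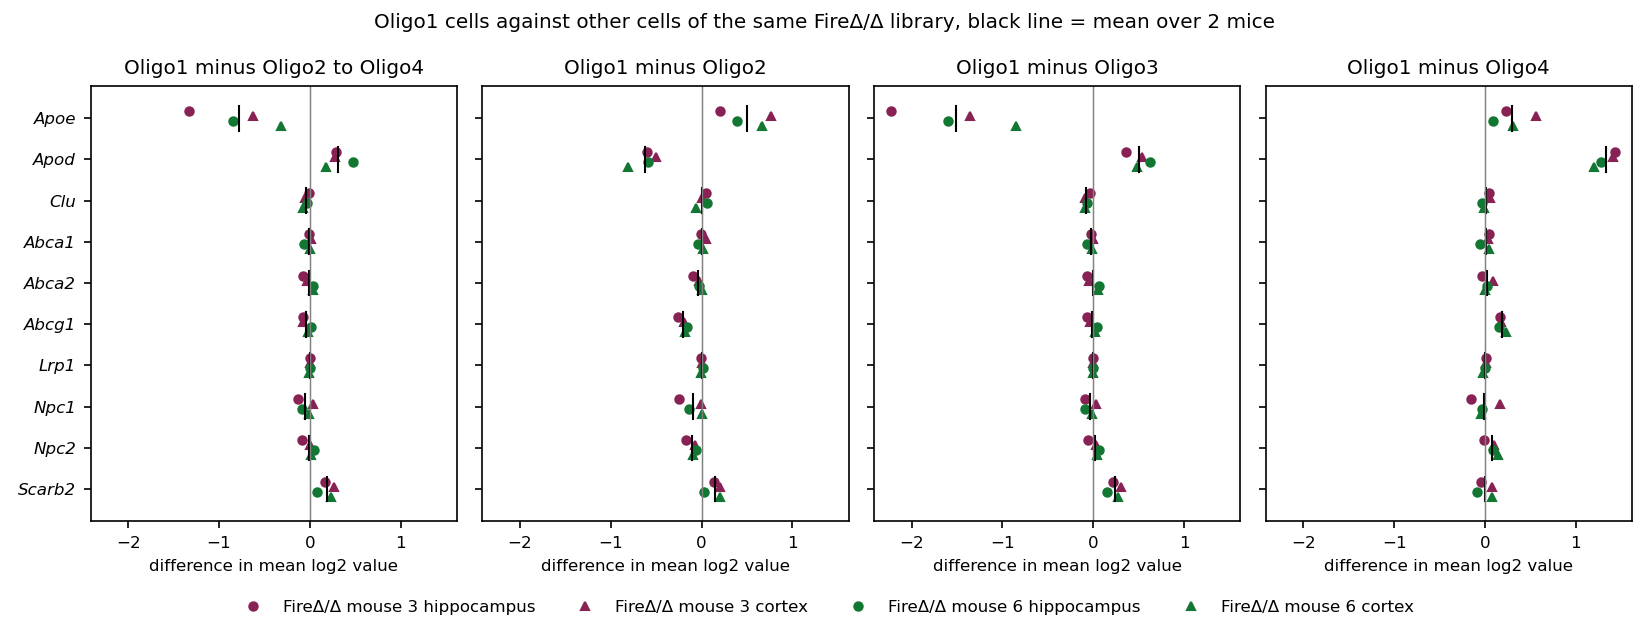
Difference in mean log2 value (x axis) between Oligo1 cells and other cells of the same *Fire*Δ/Δ library for each gene (rows), with 1 point per library and a line at the mean over 2 mice. *Apoe* and *Apod* change side between the comparisons with Oligo2 and with Oligo3, while *Scarb2* lies right of 0 in both.

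Between genotypes, over all oligodendrocytes, no gene was called. Limma on each mouse's mean, averaged over both tissues, called 0 of 9257 genes (0.0%) at an adjusted p under 0.05, and 209 had an unadjusted p under 0.05. EdgeR's quasi-likelihood test on summed UMIs called 8 genes, and limma on the libraries, with the mouse as a random block, called 1. None of the 9 genes of the group that were tested, all but *Lrp1*, was among these calls. Over Oligo2 to Oligo4 the counts were 0 of 9232 (0.0%) with limma and 133 with an unadjusted p under 0.05, 3 with edgeR and 3 with the mouse as a random block, again with none of the 9. Each p of the fit on mouse means measures the spread of 2 mice per genotype.

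*Apod* was higher in *Fire*Δ/Δ than in *Fire*+/+ cells within each of the 4 batches. In the hippocampus its level was 4.75 in mouse 3 against 4.47 in mouse 1, and 4.27 in mouse 6 against 3.99 in mouse 4. In the cortex it was 4.84 against 4.52 and 4.38 against 3.99. The differences, 0.27 to 0.39, were alike, but the mice overlapped: *Fire*Δ/Δ mouse 6 (4.32, mean of both tissues) lay below *Fire*+/+ mouse 1 (4.50). The fit over mice gave 0.32 (SE 0.27, limma adjusted p = 1.00). With batch as a term in a limma fit on the 8 libraries it gave an adjusted p of 0.052, and with mice of the same age paired, 0.29. The fit with batch had no term for the mouse. It counted both tissues of a mouse as separate replicates, so its p does not measure the spread between mice. Taking each state alone, *Apod* was higher in *Fire*Δ/Δ cells in 12 of 12 comparisons of 1 state within 1 batch, by 0.0044 to 0.30. These 12, like those of other genes below, come from the same 4 mice and are not independent. No share over all genes is given for them. The mean over batches was 0.27 in Oligo2, 0.20 in Oligo3 and 0.15 in Oligo4. Without *Fire*Δ/Δ mouse 3 the difference over all cells was 0.080, and without *Fire*+/+ mouse 4 it was 0.064. Without *Fire*+/+ mouse 1 it was 0.57, and without *Fire*Δ/Δ mouse 6 it was 0.55.

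*Scarb2* was also higher in *Fire*Δ/Δ cells within each batch, by less. Its levels were 1.25 in mouse 3 against 1.15 in mouse 1 and 1.25 in mouse 6 against 1.18 in mouse 4 in the hippocampus, and 1.30 against 1.20 and 1.28 against 1.20 in the cortex. *Fire*Δ/Δ was higher by 0.068 to 0.10 in each batch, and both *Fire*Δ/Δ mice (1.28 and 1.26) lay above both *Fire*+/+ mice (1.18 and 1.19). The fit gave 0.087 (SE 0.013, limma adjusted p = 1.00). With batch as a term the limma adjusted p was 0.058, again with both tissues of a mouse counted as separate replicates. On the scale of log2 of the mean normalized value plus 0.1 the difference was 0.13. *Scarb2* was higher in *Fire*Δ/Δ cells in 11 of 12 comparisons within 1 state and batch, with means of 0.055 in Oligo2, 0.021 in Oligo3 and 0.14 in Oligo4. *Abca2* was higher in each batch, by 0.023 to 0.16, and in 10 of 12 comparisons within 1 state and batch, but the mice overlapped, at 2.41 and 2.63 against 2.31 and 2.53.

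*Apoe* differed in sign between batches. In the hippocampus its level was 3.02 in mouse 3 against 3.96 in mouse 1, and 2.70 in mouse 6 against 2.47 in mouse 4. In the cortex it was 3.04 against 3.41 and 2.36 against 2.86. *Fire*Δ/Δ was thus lower in 3 batches and higher in batch 5. The fit gave −0.39 (SE 0.44, limma adjusted p = 1.00), and 0.12 without *Fire*+/+ mouse 1. Microglia, which make *Apoe*, are absent from *Fire*Δ/Δ mice, and the microglial marker sum was lower there (0.166 to 0.219 UMIs per 10000 against 0.667 to 1.57). Its part in the *Apoe* values was not tested. In a mean over all cells alone, fewer cells of a high state and less RNA per cell cannot be told apart, so shares and levels of the states were also taken separately.

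The remaining genes differed little between genotypes. Mouse means of *Clu* were 0.38 and 0.42 in *Fire*Δ/Δ and 0.38 and 0.38 in *Fire*+/+ mice, and those of *Abca1* 0.17 and 0.20 against 0.20 and 0.19. For *Abcg1* they were 0.81 and 0.89 against 0.80 and 0.86, for *Npc1* 1.13 and 1.23 against 1.18 and 1.29, and for *Npc2* 1.87 and 1.69 against 1.79 and 1.73. All limma adjusted p values were 1.00, and for each of these genes the batches differed in sign. *Lrp1*, which was too sparse to be tested, lay at 0.032 and 0.026 in *Fire*Δ/Δ and 0.039 and 0.037 in *Fire*+/+ mice, lower in 4 of 4 batches.

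Of the 9 tested genes, 3 were higher in *Fire*Δ/Δ cells in all 4 batches and 0 lower, where 13.4% of all tested genes were higher and 9.9% lower. Without Oligo1 cells the same counts were 3 and 0, against 10.2% and 8.34%. Both *Fire*Δ/Δ mice lay above both *Fire*+/+ mice for 1 of the 9 genes, and below for 0, where 11.9% and 8.0% of all tested genes did so. Without Oligo1 cells they lay above for 2, *Scarb2* and *Clu*, and below for 0, against 9.84% and 6.89%. The median difference of the 9 genes was 0.023, that of all tested genes 0.0013.

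**Figure D3:**
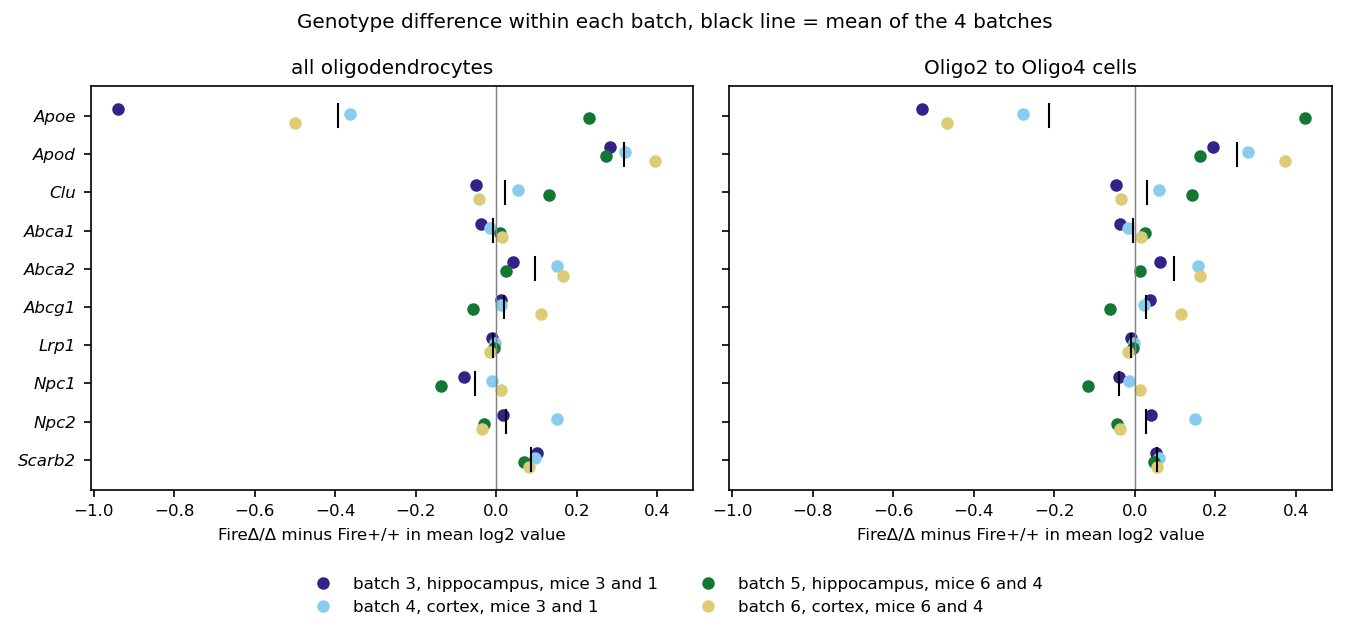
Difference in mean log2 value between the *Fire*Δ/Δ and the *Fire*+/+ library of each batch (x axis) for each gene (rows), with all cells on the left and without Oligo1 on the right, and a line at the mean of the 4 batches. *Apod*, *Abca2* and *Scarb2* lie right of 0 in all 4 batches, and *Apoe* lies on both sides.

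Oligo3, the state with the most *Apoe*, made up 43.8% and 45.9% of *Fire*Δ/Δ hippocampus cells and 56.2% and 56.1% of *Fire*Δ/Δ cortex cells, against 77.8%, 67.0%, 73.8% and 73.5% in *Fire*+/+ mice. Each genotype difference was therefore split into a part from the shares of the 4 states and a part from levels within them. The *Apoe* difference averaged −0.39 over batches, of which −0.38 came from the shares and −0.016 from levels within states. The part from shares was negative in 4 of 4 batches (−0.77 to −0.22), while the part within states ran from −0.28 to 0.48. For *Apod* the mean of 0.32 came to 0.12 from the shares and 0.20 from levels within states, and both were positive in 4 of 4 batches. The *Scarb2* mean of 0.087 divided into 0.049 and 0.038. That of *Abca2*, 0.095, divided into 0.0051 and 0.090. The states were defined on the same cells, so this is arithmetic and no test. Every *Fire*+/+ library had fewer than 20 Oligo1 cells (0 to 6), so the Oligo1 level of the *Fire*Δ/Δ library of the batch was used for it. The part within states therefore holds no difference within Oligo1.

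**Figure D4:**
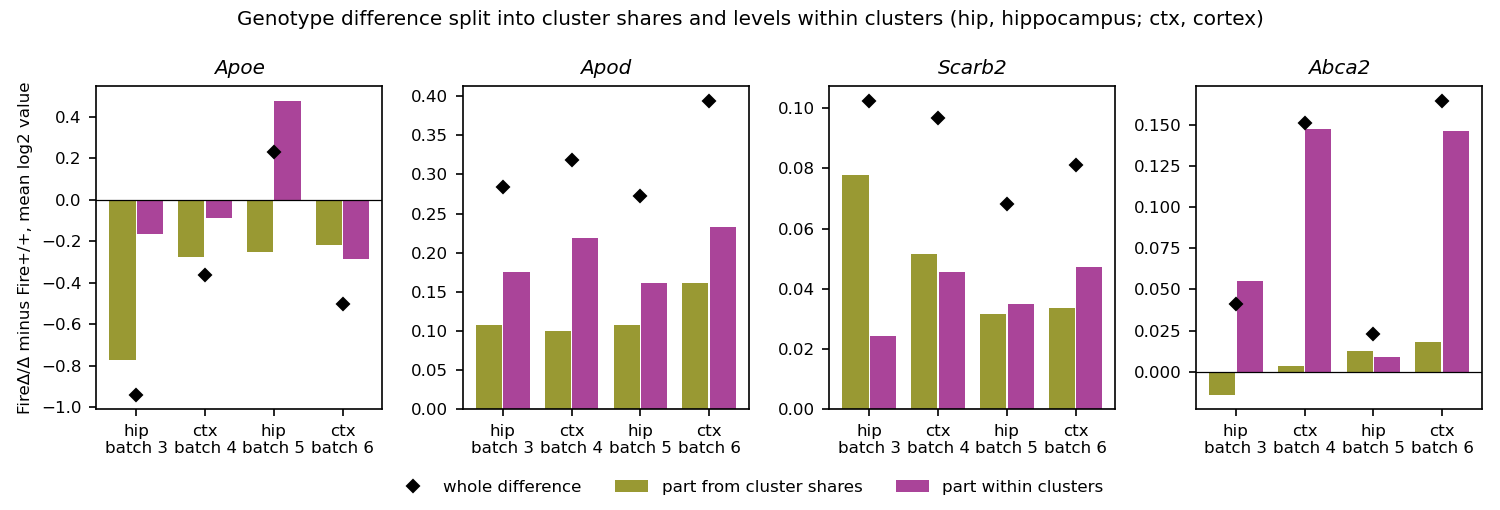
Genotype difference in mean log2 value (y axis) in each batch (x axis) for *Apoe*, *Apod*, *Scarb2* and *Abca2* (diamonds), with bars for the part from the shares of the states and the part from levels within states. For *Apoe* the share part is below 0 in all 4 batches while the part within states changes sign, and for *Apod* both parts are above 0 throughout.

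Mice 1 and 3 had more *Apoe* and *Apod* than mice 4 and 6 in both genotypes and tissues. At the same genotype and tissue they were higher by 0.46 to 0.53 for *Apod* and by 0.32 to 1.49 for *Apoe*, in 4 of 4 comparisons each. *Npc2* was also higher in 4 of 4 (0.027 to 0.21), and *Abca2* and *Npc1* were lower in 4 of 4, by 0.14 to 0.30 and 0.033 to 0.19. These comparisons come from the same 4 mice, and no share over all genes is given for them. Age, batch and the individual animals differed together between the pairs and cannot be told apart. For *Apod*, this gap was larger than the difference between genotypes.

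Between tissues, limma called 0 of 9257 genes (0.0%), and 490 had an unadjusted p under 0.05. *Scarb2* was lower in the hippocampus than in the cortex of 4 of 4 mice, by 0.022 to 0.058 (mean −0.042, SE 0.0094, limma adjusted p = 0.64). It was the only 1 of the 9 genes with 1 sign in 4 mice, where 18.6% of tested genes were lower and 6.78% higher in all 4. *Abca2* was lower in the hippocampus in 3 of 4 mice, by 0.13 to 0.25, but 0.014 higher in mouse 4. *Abcg1* was lower by 0.15 in mice 1, 3 and 6, and 0.017 higher in mouse 4. The genotype difference was not called as different between tissues for any gene (0 of 9257, 0.0%, with 574 at an unadjusted p under 0.05). For *Apod* it was smaller in the hippocampus by 0.078 on the log2 scale (SE 0.026, limma adjusted p = 0.80).

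Around these 10 genes, 41 further genes of the pathway were listed by role, of which 37 were in the matrix and 25 had enough cells to be tested between genotypes. Limma called 0 of them. In all 4 batches 4 were higher and 5 lower in *Fire*Δ/Δ cells, where 13.4% and 9.9% of all tested genes were. Mice did not overlap for 3 that were higher and 4 that were lower, against 11.9% and 8.0% of all tested genes. The median difference was 0.00076. The largest differences were those of *Sort1*, *Abca8a* and *Osbpl1a*. *Sort1* encodes sortilin, a sorting receptor that also binds lipoproteins, and was lower in *Fire*Δ/Δ by 0.14, 0.064, 0.23 and 0.18 in batches 3 to 6 (mean −0.15, SE 0.041, limma adjusted p = 1.00). *Abca8a*, a relative of *Abca1*, was higher by 0.19, 0.087, 0.14 and 0.079 (mean 0.12, SE 0.033, limma adjusted p = 1.00). *Osbpl1a*, of the oxysterol-binding protein family, was lower by 0.17, 0.081, 0.12 and 0.042 (mean −0.10, SE 0.025, limma adjusted p = 1.00). Over Oligo2 to Oligo4 the largest differences were those of *Sorl1* (−0.10, SE 0.033), a sorting receptor, *Sort1* (−0.10) and *Abca8a* (0.093), each with a limma adjusted p of 1.00.

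By role, the 5 tested exporters split into 4 higher and 1 lower by the sign of the mean, the 5 receptors into 2 and 3, and the 9 genes of lysosomal and intracellular sterol transfer into 3 and 6. These signs are given with no share over all genes. Among the exporters only *Abca8a* had 1 sign in all 4 batches, and in sterol transfer only *Osbpl1a* and *Gramd1b*. All tested receptors but *Vldlr* had 1 sign. The sterol sensor *Nr1h2* and *Lpcat3*, a target of liver X receptors, were both positive in the mean, but the batches of *Nr1h2* differed in sign. Neither *Apoc1* nor *Apoa1* reached the 5% of cells needed for a test.

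In Oligo1, 26 pathway genes were tested against the other *Fire*Δ/Δ cells. *Sort1* was the only 1 of them past the size measure, lower by 0.25 to 0.29 in 4 of 4 libraries (mean −0.26 ± 0.0031, SE, n = 2 mice). *Abca5* (0.16 ± 0.0089) and *Abca8a* (0.15 ± 0.045) had the next largest differences and were higher in 4 of 4 libraries. In all 4 libraries 5 of the 26 were higher and 9 lower, against 19.6% and 15.8% of all genes. Of the 9 lower genes, 5 belong to lysosomal and intracellular sterol transfer, where 0 of 9 were higher: *Lipa*, the lysosomal acid lipase (−0.046), *Stard3* (−0.081), *Osbpl1a* (−0.11), *Gramd1b* (−0.043) and *Scp2* (−0.061). Of the receptors, *Vldlr* was higher (0.11) and *Sort1* and *Scarb1* (−0.033) were lower in 4 of 4 libraries. Apart from *Sort1*, *Abca5* and *Abca8a*, the genes of this paragraph were named after their values were seen.

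Between tissues, the largest pathway differences were those of *Sorl1* (−0.11, SE 0.028, limma adjusted p = 0.71), *Abca8a* (0.099, SE 0.029, adjusted p = 0.80) and *Abca5* (0.066, SE 0.019, adjusted p = 0.77), given as hippocampus minus cortex. For the genotype by tissue difference they were *Scp2* (−0.11), *Stard3* (−0.095) and *Nr1h2* (−0.091), each with a limma adjusted p of 0.79.

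Levels over the 28 groups of 1 library and state were also used to find the genes most like each member, among genes seen in 5% of cells or more. The groups share mice, batches and states, so each r is a description. For *Apod* these were *Sh3kbp1* (0.96), *Acot1* (0.96) and *Snx1* (0.95), and over the 12 *Fire*+/+ groups *S100a13*, *Itm2b* and *Fez1* (0.99, 0.99 and 0.98). For *Apoe* they were *Pcsk1n* (0.90), *Cerk* (0.89) and *Qdpr* (0.88), and *Cerk* (0.94) and *Qdpr* (0.90) were again among the first 3 in *Fire*+/+ groups, with *Zfp36l2* (0.92). For *Abcg1* they were *Kctd3* (0.94), *Cdk18* (0.93) and *Apln* (0.92), and *Ctnnd1*, *Prr5l* and *Irs2* in *Fire*+/+ groups. For *Npc2* they were *Eef1d* (0.89), *Lrpap1* (0.88), the gene of a chaperone of lipoprotein receptors, and *Fez1* (0.88), with *Slc9a3r1*, *Serpind1* and *Tmem121* in *Fire*+/+ groups. For *Scarb2* they were *Tpst1* (0.86), *Rhob* (0.85) and the tight junction gene of myelin *Cldn11* (0.85), with *Sox8*, *Azin1* and *Yipf3* in *Fire*+/+ groups.

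*Abca2* was most like *Srsf1* (0.87), *Wbp2* (0.87) and *Ssh2* (0.86), *Npc1* like *Tmem56* (0.79), *Dip2a* (0.78) and *Opcml* (0.76), and *Abca1* like *Extl3* (0.67), *Gprc5b* (0.67) and *Syp* (0.66). In *Fire*+/+ groups the first 3 were *Arhgap39*, *Ssh2* and *Aldh3a2* for *Abca2*, *Ppp1r9b*, *Kcnq3* and *Gdpd5* for *Npc1*, and *Ankub1*, *Extl3* and *Wdr24* for *Abca1*. *Clu* was most like *Fam107a* (0.73) besides *Gja1*, and in *Fire*+/+ groups like *mt-Co3*, *mt-Nd1* and *Tcf7l2*. *Lrp1* was too sparse to be included. Among the members themselves, *Apod* and *Npc2* (0.78) and *Apod* and *Abcg1* (0.77) were most alike, and *Apoe* and *Scarb2* (−0.49) least.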

How the data were processed

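The authors aligned reads with CellRanger (v.5.0.0, per the labels and methods) to the mm10 reference, kept mature oligodendrocytes with at least 5000 UMIs and at most 10% mitochondrial UMIs, and normalized with scran. Their deposited matrix holds log2 values, without batch correction, and a cell table with size factors and clusters. UMI counts recovered from the deposited values were whole within 0.001 for all 42420937 values above 0. In 1317 cells the recovered sum differed from the stated total. No doublet caller was run.

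Genotype, tissue and mouse came from the labels. Per-mouse means of genes seen in 5% of cells or more (library average) were fitted with limma 3.58.1 (R 4.3.3), and p values were adjusted by Benjamini-Hochberg over all of them (threshold 0.05). Tissue was fitted on libraries with genotype as a term, and genotype by tissue on each mouse's hippocampus minus cortex difference. Oligo1 differences were averaged over tissues and then mice. The fits were tested on simulated data. Both tissues of a mouse come from 1 animal, but the tissue fit did not pair them, and a fit with the mouse as a block was an alternative. Hippocampus and cortex deviations correlated across genes at 0.84 in *Fire*+/+ and 0.85 in *Fire*Δ/Δ mice. With 2 mice per genotype that also differ in age and batch, this r cannot show an effect of the animal alone.

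The 10 genes and all lists were chosen with earlier results of these data known. Pathway genes are named where called or among the 3 largest differences of a comparison, with other names marked where they appear, and 3 genes are named by likeness per member. Alternatives included logging after averaging (normalized values, pseudocount 0.1), a filter at 10% or none, centring, single tissues or states, blocks for mouse or age pair, batch as a term, edgeR 4.0.16 on summed UMIs, other comparison cells, cells thinned to 5000 UMIs and each mouse left out. Leaving out batch 6 and pairing mice by age were chosen after seeing the data. GENCODE coordinates (GRCm38) were used for genes. Values of a few genes that these rules would name are not reported here.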

Additional observations from a re-analysis of the deposited data

Results flagged for a closer look

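Among the 4 libraries of a genotype, which come from 2 mice, a library stood apart from the other 3 in 3 of 90 groups examined, and chance gives about 1 in 20. *Apoe* in Oligo1 was higher in the cortex of *Fire*Δ/Δ mouse 3 (2.50) than in the other *Fire*Δ/Δ libraries (2.05 to 2.10), a gap of 0.892 of the range. *Abcg1* was lowest in the *Fire*+/+ hippocampus of mouse 1 over all cells (0.73, a gap of 0.849 of the range) and in Oligo3 (0.71, a gap of 0.912 of the range).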

How the results depend on the processing

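None of the 9 tested genes was called under any setting, and *Lrp1*, fitted only without a filter, was not called there. The lowest adjusted p values were 0.052 (*Apod*) and 0.058 (*Scarb2*), both with batch as a term in limma. That fit counted both tissues of a mouse as separate replicates. *Apod* and *Scarb2* kept their direction over all cells under every alternative tried. Over all cells, counts of called genes were 0 at first, 8 with edgeR (both TMM and RLE), 4 with batch as a term, 2 with log2 of the mean normalized value plus 0.1, 1 without a filter and 1 with the mouse as a random replicate block. Over Oligo2 to Oligo4 they were 3, 3, 2, 1 and 3 in the same order. Genes past the size measure in Oligo1 numbered 150, 295 against Oligo2 alone and 901 on the scale of log2 of the mean normalized value plus 0.1. With the mouse as a fixed replicate block, 0 genes were called between tissues, as with mice of the same age paired and with batch 6 left out between genotypes, and pairing changed no call of the 9. The last 2 settings were chosen after seeing the data.

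Against Oligo2 alone, Oligo1 differed by 0.50 for *Apoe* and −0.63 for *Apod*. Over all cells, the genotype difference of *Abcg1* changed sign without batch 6 (−0.022), with edgeR's RLE (−0.0041) and TMM (−0.0025) and in hippocampus (−0.023), that of *Npc1* in cortex (0.00041) and that of *Npc2* in hippocampus (−0.0074). Over Oligo2 to Oligo4, signs changed for *Apoe* without batch 6 (0.0091) and in Oligo3 (0.024), *Abca1* in Oligo3 (0.0024), *Abcg1* without batch 6 (−0.017) and in hippocampus (−0.013), and *Npc2* in hippocampus (−0.0013) and Oligo2 (−0.010). The causes were not tested.

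Leaving out 1 mouse at a time, all-cell differences between genotypes ran from −0.90 to 0.12 for *Apoe*, −0.00086 to 0.046 for *Clu*, −0.023 to 0.0078 for *Abca1*, −0.015 to 0.21 for *Abca2*, −0.018 to 0.057 for *Abcg1*, −0.11 to 0.0012 for *Npc1* and −0.062 to 0.11 for *Npc2*. Over Oligo2 to Oligo4 they ran from −0.72 to 0.29 for *Apoe*, −0.00012 to 0.51 for *Apod*, −0.022 to 0.015 for *Abca1*, −0.012 to 0.21 for *Abca2*, −0.0029 to 0.058 for *Abcg1*, −0.095 to 0.016 for *Npc1* and −0.069 to 0.12 for *Npc2*. Tissue differences ran from −0.019 to 0.29 for *Apoe*, −0.014 to 0.0048 for *Abca1* and −0.018 to 0.057 for *Npc1*. Genotype by tissue differences ran from −0.39 to 0.55 for *Apoe*, −0.038 to 0.11 for *Clu*, −0.040 to 0.013 for *Abca1* and −0.022 to 0.014 for *Scarb2*. Between genotypes, *Scarb2* stayed at 0.081 to 0.093 over all cells and 0.048 to 0.061 over Oligo2 to Oligo4.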
